A study of Mus musculus with 2 samples.

Results

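Neutrophil granule genes and the pair of S100 alarmins were followed in primary and self-renewing macrophages of the mouse. The set held 10 of the 22910 genes that the arrays could name. They were S100a8 and S100a9, the granule genes Elane, Mpo, Prtn3 and Ctsg, and the granule genes Ngp, Camp, Ltf and Lcn2, and they were read by 11 of 56598 probes. The genes were chosen by name, on their differences between the cultures as already measured on these arrays, so these differences are given as a description and support nothing. A question set with the list was whether genes of the early granules, Elane, Mpo and Prtn3, differed from genes of the late granules, for which Ngp, Camp, Ltf and Lcn2 were taken here. All 10 genes were lower in the self-renewing macrophages. At least 5-fold lower were 9 of them, beside 2.93% of the 15515 named genes above background on at least 1 array. The same 9 were at least 10-fold lower, for which no share over all genes was computed. Under normexp, a background correction that leaves a floor under dim spots, 8 were at least 5-fold and 4 at least 10-fold lower. No share over all genes was computed for these 2 counts. At least 2-fold lower under normexp were 9 of the 10, beside 4.83% of all genes. Elane was the gene outside the 9, at 72.1% of its level in the primary macrophages.

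RNA of 1 culture of each kind was labelled with 1 dye and hybridised to Agilent mouse expression arrays. Both cultures came from total bone marrow of C57BL/6 mice, given as male in the labels, with no altered allele named, and both were kept in 100 ng/ml recombinant human M-CSF, the growth factor that drives macrophage formation. The primary macrophages were adherent cells at day 5, and the self-renewing macrophages were cells that went on growing, taken after passage 4 as a bulk culture and not as a clone. The age of the mice and the number of mice behind each culture are not given in the sources used here.

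Neutrophils make their granules in a fixed order as they mature in the bone marrow. Promyelocytes fill azurophil granules with myeloperoxidase and serine proteases, myelocytes and metamyelocytes fill specific granules with lactoferrin, lipocalin 2 and cathelicidin, and gelatinase granules follow. S100a8 and S100a9 encode calcium-binding proteins that pair into calprotectin, which is abundant in the cytosol of neutrophils and blood monocytes, withholds zinc and manganese from microbes, and acts on Tlr4 and on the receptor for advanced glycation end products when released. Macrophages grown from bone marrow with M-CSF descend from progenitors that can also give rise to neutrophils.

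With 1 array a culture there is no spread between replicates, so no test was made and differences are described by size. Values are intensities after the scanner's background correction, given as primary and then self-renewing. A level is log2 of the intensity relative to the 75th percentile of that array's gene probes, which lay at an intensity of 433.6 and 446.1, and a difference is the self-renewing minus the primary level. Where the scanner marked a probe as well above background on 1 array only, the difference is a bound, written as at least N-fold, against the dimmest signal with that mark on the other array, an intensity of 13.16 for the self-renewing macrophages, or against the probe's own signal where that is higher. Of 15515 named genes above background on at least 1 array, all 10 granule and S100 genes among them, 8.38% were lower in the self-renewing culture by at least 2-fold and 2.93% by at least 5-fold. The shares higher were 4.76% at 2-fold and 1.02% at 5-fold. Of the genes at least 2-fold apart, 63.8% were lower, and 50.8% were with the authors' own scaling, which set every difference 0.19 higher. The median difference was -0.019. Of 4 Y-linked genes looked at, 0 were well above background in the primary and 4 in the self-renewing culture, while Xist, the RNA that coats the silenced X chromosome of females, was so in the primary macrophages only. The primary culture thus went against its label of male mice, and every difference below was measured between cultures that also differ in these genes. The macrophage label held on both arrays, where all 19 macrophage markers looked at were well above background, among them Csf1r, the M-CSF receptor, at 113750 and 153276, Adgre1, the F4/80 antigen, at 65170 and 96314, and Cd68 at 89479 and 112459.

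The S100 pair had some of the largest differences on the arrays. The S100a9 intensity was 25450 in the primary culture and 4.26 in the self-renewing culture, where it was not well above background. It was at least 1990-fold lower, a bound of -10.96 on the log2 scale. S100a8, the partner it pairs with, gave 10197 and 10.3, again without that mark in the self-renewing culture, and was at least 797-fold lower, a bound of -9.64. Of the 10 genes, 6 were above background in the primary macrophages only, beside 7.61% of all genes, and 4 on both arrays, beside 90.3%. Both S100 genes were bright in the primary culture and at background in the self-renewing culture. Among the 15515 genes ordered by difference or bound, S100a9 and S100a8 stood at places 2 and 3 from the lowest. Scd2, a fatty acid desaturase, came before them with a bound of -11.10, and Pla2g7, a secreted phospholipase that degrades platelet-activating factor, came next with a bound of -9.17. All 4 are bounds set by how bright each gene was in the primary macrophages, so neither their order nor the distance between them measures how far each gene went down.

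**Figure D1:**
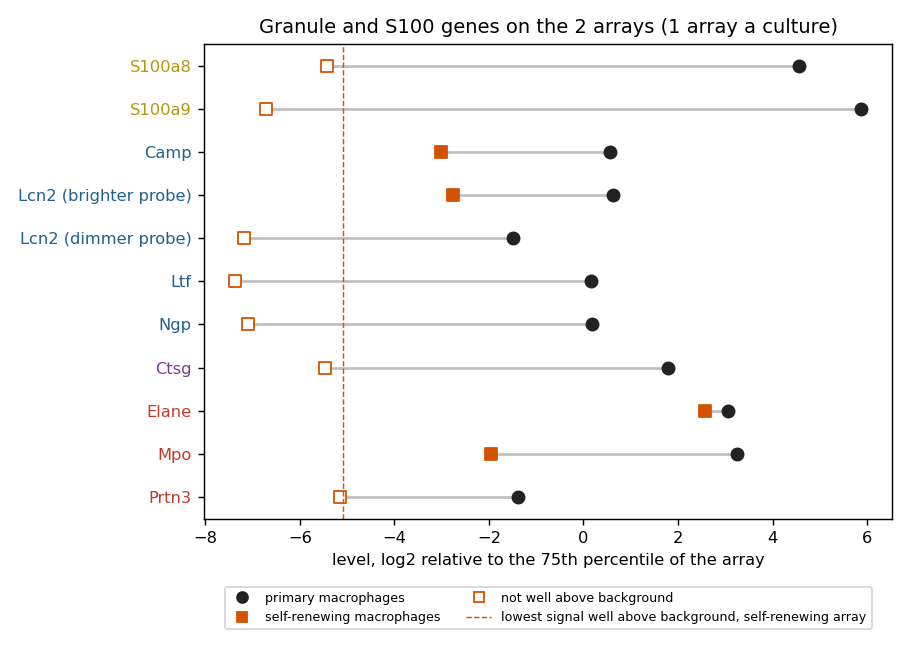
Level of each granule and S100 gene on the 2 arrays, as log2 intensity relative to the 75th percentile, with circles for primary and squares for self-renewing macrophages and open squares where the probe was not well above background. Every gene lies lower in the self-renewing macrophages, 6 of the 10 genes end at background there, and the Elane markers lie 0.47 apart.

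The other S100 family genes did not share this difference. Of 17 family members looked for, 12 were above background on at least 1 array, and only S100a9, S100a8 and S100a11 were at least 2-fold lower, with 0 higher. S100a11, which binds annexins at membranes, went from 11879 to 3592 and was 3.40-fold lower. S100a10, the annexin A2 partner, went from 21803 to 12315, a difference of -0.87. S100a4, common in motile cells, stood at 343480 and 308916, and S100a6 at 119696 and 119918, so these abundant transcripts differed by -0.19 and -0.038. S100a1 and S100a13 were a little higher, by 0.35 and 0.33. Without S100a8 and S100a9, the 10 remaining genes had a median difference of -0.041, beside -0.019 over all genes.

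**Figure D2:**
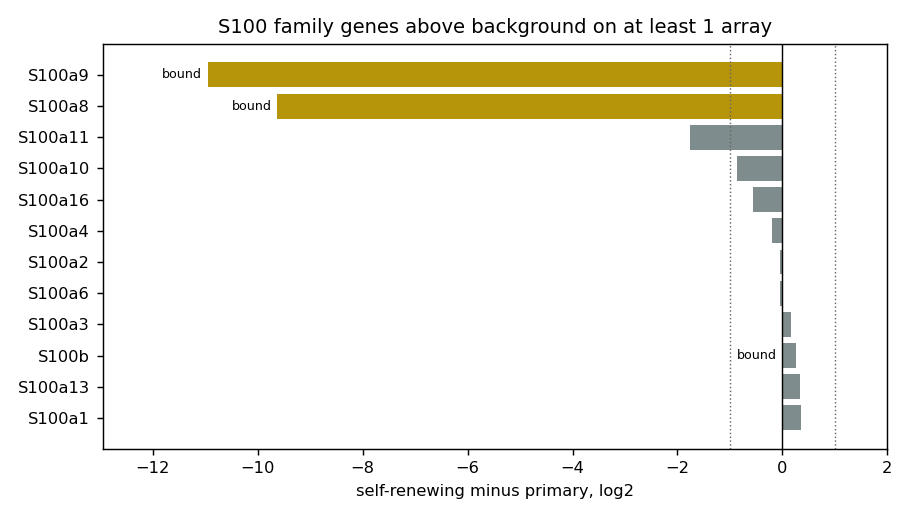
Difference in log2 level, self-renewing minus primary, for the 12 S100 family genes above background, with S100a8 and S100a9 in gold and bounds marked. The S100a8 and S100a9 bars reach -9.64 and -10.96, S100a11 reaches -1.77, and the other 9 bars lie within 1 log2 unit of 0.

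S100a8 and S100a9 lie next to each other on chromosome 3, with no protein-coding gene between them, and are transcribed from opposite strands. Of the 10 protein-coding genes on each side, other than the pair itself, 9 around S100a8 were above background, and 0 of them were 2-fold lower or higher, with differences between -0.56 and 0.35. The 250 bases before each start site are shown because the genes lie side by side and were both low together. They are RefSeq sequences of the GRCm38.p6 build, 5′ to 3′ on the gene's own strand, and capitals mark the motifs searched for on both strands. The motifs were a C/EBP motif (TTGCNNAA), a PU.1 core (GAGGAA), a RUNX core (TGTGGT), a Myb core (AACNGTT) and a TATA box (TATAAA). S100a8 is read on the plus strand (chr3:90668821-90669070) and S100a9 on the minus strand (chr3:90695722-90695971).
S100a8: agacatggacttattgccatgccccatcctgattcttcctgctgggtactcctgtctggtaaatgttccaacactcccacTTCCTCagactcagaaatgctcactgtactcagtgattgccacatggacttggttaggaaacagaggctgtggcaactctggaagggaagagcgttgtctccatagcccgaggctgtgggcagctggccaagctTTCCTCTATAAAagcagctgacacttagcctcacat
S100a9: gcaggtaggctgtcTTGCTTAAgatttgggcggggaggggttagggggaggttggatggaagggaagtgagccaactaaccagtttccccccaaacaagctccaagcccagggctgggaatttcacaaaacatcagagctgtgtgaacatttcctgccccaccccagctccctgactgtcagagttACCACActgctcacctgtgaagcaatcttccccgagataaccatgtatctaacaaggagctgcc
The S100a8 window held a TATA box that begins 30 bases before the start, directly after a PU.1 core on the minus strand, with another PU.1 core farther up. The S100a9 window held a C/EBP motif and a RUNX core and neither of the motifs of S100a8. A match is a run of letters and not a site shown to be bound.

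Among the genes of the early granules, Elane and its neighbours in function went apart. Mpo encodes myeloperoxidase, which makes hypochlorous acid. It went from 4094 to 115, well above background on both arrays, and was 36.6-fold lower, a difference of -5.20. The self-renewing macrophages kept 2.73% of the primary level. Prtn3 encodes proteinase 3, a serine protease, and went from 167 to 12.6, at background in the self-renewing culture. It was at least 13-fold lower, which is as large a fall as its probe could show. Elane encodes neutrophil elastase, the closest of these proteases to proteinase 3 in function. It stood at 3602 and 2671, far above background on both arrays, a difference of -0.47 or 1.39-fold lower. The scanner's own error for that difference is 0.20 on the log2 scale, and probes for the same gene disagreed by an SD of 0.33 over 5077 genes. The Elane probe had room to show a fall of 282-fold. A difference of the size of Elane's was common on these arrays, as 18.7% of all genes were lower than it. Mpo, Prtn3 and Elane each had 1 probe, so no second probe could be set beside the Elane value, and whether its probe also reads another transcript was not tested.

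Ctsg encodes cathepsin G, another serine protease of the azurophil granules. It went from 1505 to 10.1, at background in the self-renewing macrophages, and was at least 118-fold lower. Elane was thus the one gene among the 4 proteins of the azurophil granules that was still bright in the self-renewing macrophages, and Mpo was the other still above background. The mark does not order how much was kept. Prtn3, at 12.6, lay just under 13.16, the dimmest signal with the mark, and by that signal kept 7.36% of its primary level, beside 2.73% for Mpo.

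The 4 genes of the late granules were all lower. Ngp, a cystatin-like protein of neutrophil granules, went from 494 to 3.25 and was at least 38.6-fold lower. Ltf, the iron-binding lactoferrin, went from 484 to 2.71 and was at least 37.9-fold lower. Neither stood clear of background in the self-renewing culture. Camp, the cathelicidin whose peptide disrupts microbial membranes, went from 641 to 55.2, above background on both arrays, and was 12.0-fold lower. Lcn2, lipocalin 2, which binds bacterial siderophores, had a brighter probe that went from 664 to 65.6 and was 10.4-fold lower, and a dimmer probe that went from 155 to 3.06 and was at least 12.1-fold lower. Camp and the brighter probe of Lcn2 therefore kept a low signal, 8.36% and 9.60% of the primary level, where Ngp and Ltf were at background. The dimmer probe of Lcn2 was at background as well, so the Lcn2 probes disagreed on whether a signal remained.

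Across the set, the median difference was -5.22. The median was -3.70 for the 3 early genes and -4.41 for the 4 late genes, a distance of 0.71 that does not settle an order. The early median is the bound of Prtn3, whose probe could show no larger fall, and the late median rests in part on the bound of Ltf, so both depend on how bright these probes were in the primary culture. Their ranges overlapped, from -5.20 to -0.47 for the early and from -5.27 to -3.38 for the late genes. The contrast turned on Elane and on where cathepsin G was placed. With Ctsg counted as an early gene, or without Elane, an alternative chosen after the values were seen, the early median was -4.45 and the early minus late difference was -0.038. Of the 3 early genes 1 is a bound, and of the 4 late genes 2. Of the summed levels, taken as intensity over the 75th percentile, the early genes kept 0.346 of the primary sum, nearly all of it Elane, and the late genes 0.0539.

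**Figure D3:**
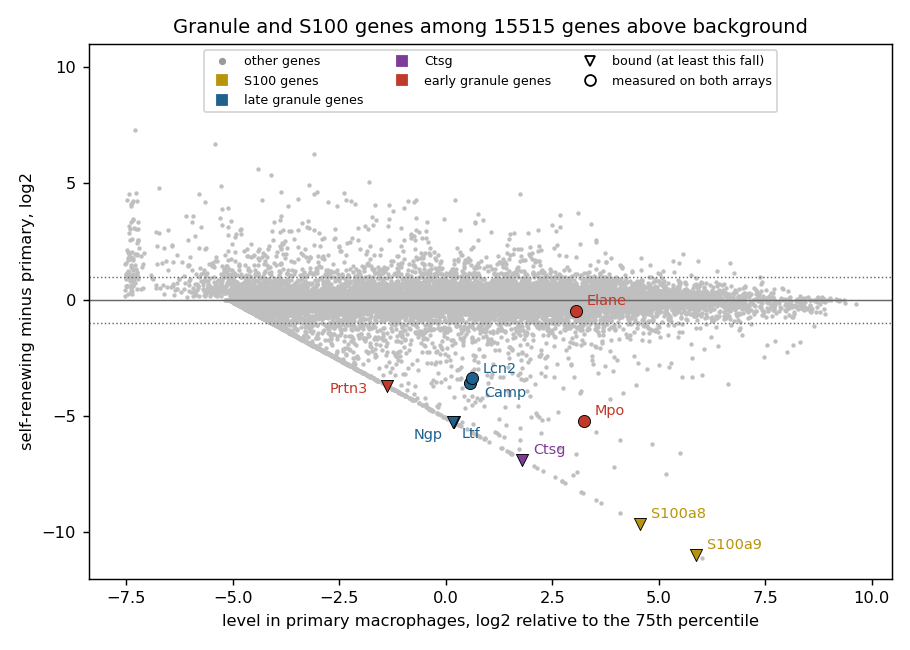
Difference in log2 level, self-renewing minus primary, against the level in primary macrophages for 15515 genes (grey) and the 10 granule and S100 genes (coloured), with triangles for bounds, which lie on the lower edge since no probe can show a fall below background. S100a9 and S100a8 lie at the far end of that edge, Mpo lies well below the body of genes at -5.20, and Elane lies within it at -0.47.

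Whether the genes were low together with their genomic neighbours was looked at by gene order alone. Prtn3 and Elane lie directly beside each other on chromosome 10, and of these neighbours one was at least 13-fold lower and the other 1.39-fold lower. On the far side of Elane, Cfd, the complement factor D gene, was above background in the self-renewing culture only, at least 1.92-fold higher, and Prss57, a further azurophil protease gene nearby, was at background in the self-renewing macrophages with a bound of -0.49. Camp, Ngp and Ltf lie on chromosome 9 in that order. Of the 28 protein-coding genes between Camp and Ltf besides Ngp, 21 were above background, 1 was 2-fold lower and 0 were higher. That gene was Nradd, with -1.60, and the median of the 21 was -0.075. All 8 genes between Camp and Ngp were measured, and 0 were 2-fold lower or higher. The low values of Camp, Ngp and Ltf were therefore not shared by the genes between them. Beside Mpo on chromosome 11, the 13 neighbours above background had a median of -0.079, and 1 of them was 2-fold lower, Tspoap1, a scaffold gene, with -2.42. Lcn2 on chromosome 2 had 20 neighbours above background, 1 lower and 3 higher.

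The upstream windows of the granule genes are shown for the neighbours Prtn3 and Elane, which differed, and for Mpo, Ngp and Ltf, which were low. They are again RefSeq sequences of GRCm38.p6 on the gene's own strand, which is the plus strand for all of them. Their places are chr10:79879417-79879666 for Prtn3, chr10:79886062-79886311 for Elane, chr11:87793534-87793783 for Mpo, chr9:110419558-110419807 for Ngp and chr9:111019042-111019291 for Ltf.
Prtn3: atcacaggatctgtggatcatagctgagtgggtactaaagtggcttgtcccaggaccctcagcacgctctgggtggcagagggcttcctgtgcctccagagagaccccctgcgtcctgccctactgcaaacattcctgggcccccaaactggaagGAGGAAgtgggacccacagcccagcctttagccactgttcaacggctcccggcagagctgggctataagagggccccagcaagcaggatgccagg
Elane: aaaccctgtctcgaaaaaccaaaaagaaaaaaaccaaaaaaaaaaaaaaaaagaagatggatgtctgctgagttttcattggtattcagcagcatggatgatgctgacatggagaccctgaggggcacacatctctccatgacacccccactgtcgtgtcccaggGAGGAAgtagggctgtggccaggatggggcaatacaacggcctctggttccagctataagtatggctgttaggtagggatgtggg
Mpo: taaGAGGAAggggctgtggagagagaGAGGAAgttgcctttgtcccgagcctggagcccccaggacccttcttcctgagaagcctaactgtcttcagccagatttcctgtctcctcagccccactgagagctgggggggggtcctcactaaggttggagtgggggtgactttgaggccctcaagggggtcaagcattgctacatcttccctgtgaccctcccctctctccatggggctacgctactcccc
Ngp: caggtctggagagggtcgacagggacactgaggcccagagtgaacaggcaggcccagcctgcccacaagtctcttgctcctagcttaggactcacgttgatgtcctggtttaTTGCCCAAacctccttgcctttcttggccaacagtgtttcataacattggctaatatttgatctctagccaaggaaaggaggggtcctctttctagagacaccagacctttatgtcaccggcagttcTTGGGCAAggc
Ltf: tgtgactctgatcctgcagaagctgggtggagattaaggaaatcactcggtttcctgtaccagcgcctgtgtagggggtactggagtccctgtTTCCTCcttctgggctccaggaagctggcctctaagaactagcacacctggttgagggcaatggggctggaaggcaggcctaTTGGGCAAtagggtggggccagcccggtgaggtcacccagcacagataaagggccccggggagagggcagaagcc
A PU.1 core stood in 7 of the 10 windows, those of S100a8, Ltf, Lcn2, Elane, Mpo, Prtn3 and Ctsg, beside 23.3% of 32851 windows of that length genome-wide. Prtn3 and Elane held it on the same strand, beginning 95 and 85 bases before the start, so this match did not separate the gene that was low from the gene that was not. A C/EBP motif stood in 4 of the 10, those of S100a9, Ngp, Ltf and Lcn2, beside 9.56% of all windows, and in none of Elane, Mpo, Prtn3 and Ctsg. Ngp held 2 copies. The RUNX core stood in 2 of the 10 windows, beside 14%, the TATA box in 2 of the 10, beside 12.4%, and the Myb core in 0, beside 3.80%.

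Other granule genes, looked at as lists, did not follow the set as a whole. Of 16 other azurophil granule genes above background, 3 were 2-fold lower, 0 were higher and the median was -0.041. Ms4a3, a membrane protein of granulocyte progenitors, went from 237 to 3.27, at least 18.5-fold lower. Srgn, serglycin, the proteoglycan that packs proteases into granules, went from 6663 to 1241, 5.52-fold lower. Nkg7, a granule membrane protein, was 3.86-fold lower. Ctsc, which activates Elane, Prtn3 and Ctsg by clipping them, differed by 0.19, and the lysozymes Lyz2 and Lyz1 by 0.76 and -0.12. Lysosomal enzymes that azurophil granules share with macrophage lysosomes, such as Gusb and Man2b1, both differed by 0.43.

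The specific granule list lay lower. Of 21 genes above background, 8 were 2-fold lower and 2 higher, with a median of -0.67. That median was -0.33 under normexp and -0.047 over the 15 genes above background on both arrays. Mmp8, neutrophil collagenase, went from 6716 to 46.6 and was 148-fold lower. Chil3, the chitinase-like Ym1, went from 3914 to 8.64, at least 306-fold lower. Both are genes of neutrophils, and Chil3 is also a gene of monocytes. Wfdc21 was at least 27.2-fold lower, and Ltb4r1, the leukotriene B4 receptor, was 17.4-fold lower. Pglyrp1, a peptidoglycan-binding protein, was at least 5.32-fold lower. In the other direction, Ceacam10 went from 11.1 to 362, at least 29.8-fold higher, and Cybb, the catalytic subunit of the phagocyte oxidase, was 2.32-fold higher. For Slpi, a protease inhibitor, a probe above background on both arrays differed by -0.28 while another gave a bound of -5.09, so its probes disagreed on the size.

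Of 10 gelatinase granule genes above background, 3 were 2-fold lower and 3 higher, with a median of -0.041. Padi4, which converts arginine to citrulline in histones, went from 422 to 2.76, at least 33.0-fold lower, and Hgf, hepatocyte growth factor, was at least 7.65-fold lower. Both formyl peptide receptors were higher, Fpr1 from 33.2 to 566, 16.6-fold, and Fpr2 from 262 to 1234, 4.57-fold. Mmp9, gelatinase B, was near background on both arrays, at 18.5 and 20.6.

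**Figure D4:**
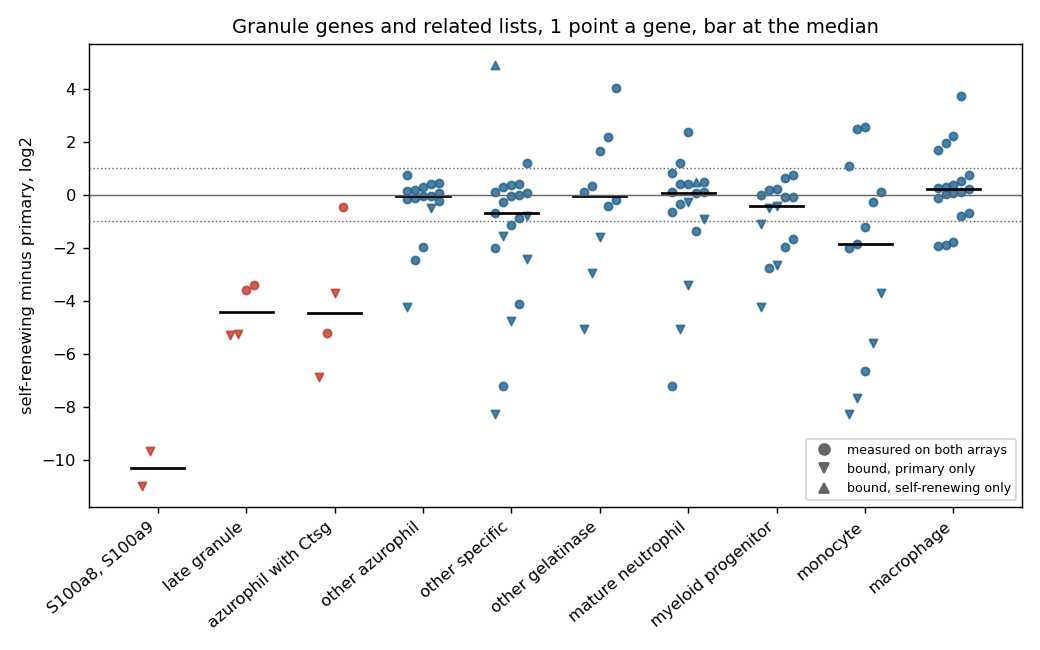
Difference in log2 level, self-renewing minus primary, 1 point a gene, for the granule and S100 genes (red, Ctsg plotted with Elane, Mpo and Prtn3) and related gene lists (blue), with triangles for bounds and a bar at each median. The medians of the red groups lie between -10.30 and -4.41, the monocyte median lies at -1.84, and the other lists have medians between -0.67 and 0.23 with single genes far from 0.

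Markers of other cell types were set beside these values, because in bulk RNA fewer cells of a type and less RNA per cell cannot be told apart. Ly6g, a surface marker of neutrophils, has no named probe here. Of 25 other mature neutrophil markers on the array, 18 were above background on at least 1 array, 4 were 2-fold lower and 2 higher, with a median of 0.089. The lower genes were Mmp8, Padi4, Il1r2, at least 10.6-fold, and Hdc, 2.54-fold. Clec4e, a lectin receptor that macrophages make too, was the largest difference upwards, at 5.21-fold. The other 7 were not above background in either culture, among them Cxcr1, a chemokine receptor, Retnlg, a resistin-like protein, and Cd177, a surface protein of neutrophils. Cxcr2, the main chemokine receptor of neutrophils, stood at 9.36 and 16.9, above background in the self-renewing culture only. Csf3r, the G-CSF receptor, stood at 71955 and 77977. The summed level of the list was 361 and 445 times the 75th percentile, most of it from Csf3r and Clec4d, a lectin receptor, without which it was 38.8 and 63.7.

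Some monocyte and progenitor markers were also lower. Of 13 monocyte markers, all above background, 8 were 2-fold lower and 3 higher, with a median of -1.84. The median was -0.27 over the 9 above background on both arrays. Their summed level went from 83.4 to 156, a sum carried by Ly6c1 and Ly6c2, without which it went from 60.3 to 22.6. F13a1, coagulation factor XIII, was at least 200-fold lower, Ccr2, the receptor that brings monocytes into tissue, went from 3634 to 37.5 and was 99.6-fold lower, Plac8 was at least 47.7-fold lower and a probe of Fn1, fibronectin, at least 13-fold lower. Another Fn1 probe went the other way, from 8.14 to 33.0, at least 2.71-fold higher, and the mean over the probes of Fn1 was -1.13. Ly6c2, a surface marker of classical monocytes, went the other way, from 5025 to 29296, 5.67-fold higher, and Ly6c1 had probes in opposite directions, 2.57 and -4.42. Of 15 myeloid progenitor markers above background, 6 were 2-fold lower and 0 higher, with a median of -0.41, which was -0.041 over the 10 above background on both arrays. Besides Ms4a3, Cd34 went from 95.8 to 14.7, 6.71-fold lower, and Kit was at least 2.13-fold lower. The 19 macrophage markers had 3 lower and 4 higher, a median of 0.23, and a summed level of 1816 and 2314. Among them C1qa, a chain of complement C1q, was 13.4-fold higher and Mertk, a receptor for dying cells, 4.68-fold higher. The 3 lower markers were Lgmn, 3.83-fold, Cd163, 3.71-fold, and Fcgr1, 3.39-fold. The part of these cell types in the granule and S100 values was not tested.

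Factors known to control granule genes differed in both directions. Of 19 regulators of granulocyte genes above background, 4 were 2-fold lower and 3 higher, with a median of 0.0041. Cebpe, the C/EBP factor that neutrophils need for their specific granules, went from 823 to 13.6 and was 62.2-fold lower, marked as above background in both cultures. Its self-renewing signal lay close to 13.16, the dimmest with that mark, and its difference of -5.96 was -3.69 under normexp. Myb, a progenitor factor, was at least 6.21-fold lower, and Gfi1, a repressor needed for neutrophil formation, went from 62.7 to 2.79, at least 4.90-fold lower. Cebpa, Cebpb and Spi1, which encodes PU.1, differed by 0.65, 0.40 and 0.23, and Runx1 by 0.36. Cebpd was 3.43-fold higher and Trib1, which promotes the breakdown of C/EBPα protein, 3.18-fold higher.

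Receptors and scavengers of the granule and S100 proteins were little different as a list, with 2 of 10 at least 2-fold lower, 1 higher and a median of -0.088. Tlr4, on which calprotectin acts, differed by 0.34, and Ager, the receptor for advanced glycation end products, by -0.12. Cd36, a scavenger receptor that also binds the fatty acids carried by calprotectin, went from 16308 to 2273 and was 7.38-fold lower, and Emb, embigin, a relative of the S100a9 receptor basigin, was 2.51-fold lower. Basigin itself, Bsg, differed by -0.29. Fpr2, a receptor of the cathelicidin peptide, was the gene that was higher.

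The set was also read under 9 other ways of processing the same arrays. Elane stayed between -0.49 and -0.28, and Mpo between -5.21 and -4.58. The largest shifts were those of genes at background, where normexp gave smaller differences. S100a9 ran from -12.59 to -8.47 and S100a8 from -9.99 to -7.28, Ctsg from -7.26 to -4.61, Ngp from -7.29 to -2.94, Ltf from -7.52 to -3.08 and Prtn3 from -3.76 to -1.61. Camp ran from -3.60 to -2.62 and Lcn2 from -3.49 to -2.60. All 10 genes kept their direction under each setting that gave a value, and Elane alone stayed within 2-fold in all of them. A bound cannot lie above 0, and only the setting with no background filter gave the genes with bounds a measured difference. The settings also read the same arrays on which the genes were chosen, so the kept direction supports nothing further.

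**Figure D5:**
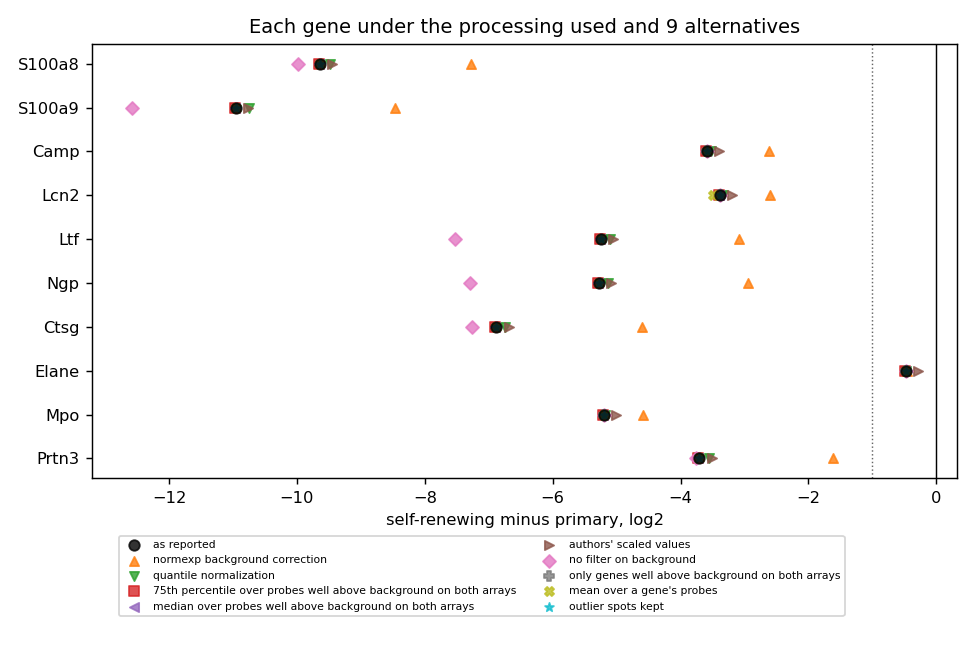
Difference in log2 level, self-renewing minus primary, of each granule and S100 gene as reported (black) and under 9 alternatives of processing (coloured). Normexp gives the smallest difference for 9 genes, the points of Elane lie between -0.49 and -0.28, and every other gene stays below -1.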

How the data were processed

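Agilent SurePrint G3 arrays for the mouse, both on 1 slide and with 1 dye, measured RNA of a primary and a self-renewing culture. The files deposited by the authors are the Feature Extraction 11.5.1.1 output, which gives each spot an intensity that the software had corrected for background and detrended, and a second table of that intensity times 1 constant per array, 1.07 and 1.19, whose choice is not given in the sources used here. From the deposited intensity, log2 was taken here, less the 75th percentile of the gene probes on that array. Control spots and 63 spots an array with an outlier flag were left out, spots of a probe were averaged, and 0 spots were saturated. Well above background were 34807 probes on the primary and 33095 on the self-renewing array, and the median SD over spots of 1 probe was 0.042 log2 for the first and 0.045 for the second. A gene was its probe, above background on at least 1 array, with the highest mean log2 level. Names came from accessions in a RefSeq table of GRCm38.p6, which matched 58.3% of 56598 probes. The array design uses an earlier build, so that table gave gene order only, and the upstream windows come from RefSeq itself.

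The genes and lists were chosen with earlier results of these data known. Named in the text are the 10 genes, at most 6 genes of each other list that differed at least 5-fold, the genes next to S100a8 and S100a9 in order of difference, the nearest neighbours on the chromosome and macrophage markers. Other genes named were chosen after their values were seen. The lists were other azurophil, specific and gelatinase granule genes, the S100 family, receptors, protease inhibitors, regulators of granulocyte genes, and markers of mature neutrophils, macrophages, monocytes, myeloid progenitors, eosinophils with basophils and mast cells, erythroid cells and lymphoid cells. Thresholds were 2-fold and 5-fold. The number of arrays limits the precision, and no test was made. The procedure was tested on simulated data, where 200 genes were changed 4-fold. At 2-fold, 96.5% of them were recovered and 0 unchanged genes were called. Both simulated arrays were made from the same mean signal with small added noise and no variation between cultures. An unchanged gene could hardly reach 2-fold there, so the 0 says nothing about false calls in the real data. The changed genes were drawn from those above background on both arrays. Large falls to background, such as those of S100a8 and S100a9, were therefore not simulated. Alternatives were the scaled table of the authors, quantile normalization, normexp with offset 50, scaling to the median or the 75th percentile of probes above background on both arrays, only genes above background on both arrays, no background filter, the mean over probes, outlier spots kept, and other groupings of the early and late genes. R 4.3.3 with limma 3.58.1 ran normexp, and Python 3.11.15 ran the rest, with pandas 2.3.3, numpy 2.4.6 and, for plots, matplotlib 3.10.9.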

Additional observations from a re-analysis of the deposited data

How the results depend on the processing

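No paired analysis was possible because 1 array stood for each culture. Under normexp the median of the 10 genes was -3.01, that of the early genes -1.61 and of the late genes -2.78, and the early genes lay 1.16 above the late genes. With no filter on background, where signals at background count as measured, the median of the 10 genes was -6.23 and of the late genes -5.43, and the early genes lay 1.67 above. With only genes above background on both arrays, 4 of the 10 could be used, of which 3 were 2-fold and 3 were 5-fold lower. Of all 14007 genes under that setting, 5.58% were 2-fold lower, and the share at 5-fold was not computed. The median of the 4 was -3.48, with an early median of -2.83 over 2 genes and a late median of -3.48 over 2 genes. With Ctsg counted as early, or without Elane, the early median was -4.45 and the early minus late difference -0.038, a change of direction. With S100a8 and S100a9 counted as late, the late median was -5.26 and the difference 1.55. Normexp added an offset of 50 to every spot of both arrays, well over the self-renewing intensities of the genes at background. How much of its shifts comes from that offset was not tested. The other shifts follow from which genes or signals enter. Of 84 values for the 10 genes under other settings, 70 stayed within 0.33 log2, the SD between probes of a gene, 14 moved further, all in genes other than Elane, and 0 changed direction. For the genes limited to bounds, a change of direction was possible only with no filter on background. Of 406 values for other named genes, 1 changed direction, that of Ly6c1, at -0.93 as the mean of its probes. Of 126 list medians, 6 moved further than that SD. Among them, with only genes above background on both arrays, the gelatinase granule median was 0.33. Signal over background limits Prtn3, Ngp, Ltf, Ctsg, S100a8 and S100a9 to bounds, and the count of arrays limits all values.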

Other observations

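Markers of the other granulocytes were low on these arrays, and some were lower in the self-renewing macrophages. Of 13 eosinophil, basophil and mast cell genes above background, 4 were 2-fold lower and 0 higher, with a median of -0.29. Ear2, an eosinophil-associated ribonuclease, went from 199 to 6.30 and was at least 15.5-fold lower, Siglecf, a surface lectin of eosinophils, went from 189 to 20.5 and was 9.49-fold lower, and Prg2, major basic protein, was at least 6.07-fold lower. Epx, eosinophil peroxidase, was not above background in either culture. Of 11 lymphoid genes, 2 were 2-fold lower and 0 higher, with a median of -0.060, and Cd79b, a chain of the B cell receptor, went from 696 to 2.96 and was at least 54.4-fold lower, while Cd79a, the other chain, stood at 15.5 and 21.3. Of 7 erythroid genes, 1 was lower and 0 higher, with a median of -0.34.

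Of 16 inhibitors of the granule proteases above background, 0 were 2-fold lower and 1 was higher, Wfdc17, which went from 19172 to 58673 and was 2.97-fold higher, and the median was 0.015. Slpi counts there by a probe that differed by -0.28, while its other probe went from 436 to 3.10 and was at least 34.1-fold lower. Serpinb1a, an inhibitor of elastase, cathepsin G and proteinase 3, stood at 855 and 859.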
